A study of Mus musculus with 6 samples.

Results

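The 9 genes described here encode the enzymes that build serine and pass its carbon into the folate pool: Phgdh, Psat1 and Psph of serine synthesis, and Shmt1, Shmt2, Mthfd1, Mthfd1l, Mthfd2 and Aldh1l2 of one-carbon metabolism. They were chosen by gene name, with no measured value in the rule, and each name matched 1 of the 53465 mouse genes in the table. RNA sequencing of 6 cell lines was used, with 3 lines of the genotype Myc_Utx (2A, 2B and 2D) and 3 lines of the genotype Myc_p53 (1, 2 and 3), each from the liver tumour of a different mouse. Adult female C57BL/6 mice had received, by hydrodynamic tail vein injection, a Myc transposon driven by the EF1a promoter together with Cas9 and a guide RNA, which in Myc_Utx was directed against Kdm6a (also called Utx, a histone H3K27 demethylase). Myc_p53 is the comparison genotype of the labels, made with another guide. Both groups therefore carry the Myc transgene, and no line with Myc alone was analysed here, so that effects of the Myc_Utx and of the Myc_p53 genotype cannot be told apart in any difference. The lines were grown on collagen-coated plates in medium with serum, each line is 1 culture of 1 tumour, and the label of origin is liver cells.

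Serine synthesis starts from the glycolytic intermediate 3-phosphoglycerate. Phgdh oxidises it, Psat1 adds the amino group from glutamate and Psph removes the phosphate. Shmt2 in mitochondria and Shmt1 in the cytosol then split serine into glycine and a one-carbon unit on tetrahydrofolate. In mitochondria Mthfd2 oxidises this unit and Mthfd1l releases it as formate, which leaves for the cytosol. There Mthfd1 builds it back onto folate for purine and thymidylate synthesis. Aldh1l2 burns mitochondrial formyl-folate to carbon dioxide. In proliferating and tumour cells this route feeds nucleotide synthesis, and Myc and the stress-response factor ATF4 are known to activate several of its genes.

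In these lines the 3 serine synthesis genes overlapped between the groups and did not pass the test, while 3 folate genes, Shmt2, Mthfd1 and Mthfd1l, were higher in every Myc_Utx line than in every Myc_p53 line, by 1.63-fold, 1.64-fold and 1.43-fold. Of the 9 genes, 1 (Mthfd1) was called higher at an adjusted p under 0.05 and 0 were called lower in the edgeR quasi-likelihood model, with 3 of 9 at an unadjusted p under 0.05. By DESeq2, 2 were higher and 0 lower, beside 1268 higher and 1514 lower over the whole table. Across the 11510 genes tested, edgeR called 6.99% higher and 7.69% lower, 14.7% in all, and 4026 (35.0%) had an unadjusted p under 0.05. The groups did not overlap in 3 of the 9 genes, all of them higher in Myc_Utx, where 42% of all genes tested showed no overlap in one direction or the other. Both counts thus lie near those of the whole table. Fold changes were positive in 6 genes and negative in 3, with a median log2 fold change of 0.22 beside -0.01 for all genes tested. All 9 genes passed the filter on low counts.

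The promoters of the 3 genes without overlap are shown as those of the genes whose groups separated, although Shmt2 and Mthfd1l did not pass the test. Each is 300 bases of RefSeq sequence (GRCm38.p6), 250 before and 50 from the annotated start, with the transcribed 50 bases in capitals, read 5′ to 3′ on the strand of the gene. They lie at chr10:127522395-127522694 (minus strand) for Shmt2, chr12:76254982-76255281 (plus strand) for Mthfd1 and chr10:3972825-3973124 (plus strand) for Mthfd1l.
Shmt2: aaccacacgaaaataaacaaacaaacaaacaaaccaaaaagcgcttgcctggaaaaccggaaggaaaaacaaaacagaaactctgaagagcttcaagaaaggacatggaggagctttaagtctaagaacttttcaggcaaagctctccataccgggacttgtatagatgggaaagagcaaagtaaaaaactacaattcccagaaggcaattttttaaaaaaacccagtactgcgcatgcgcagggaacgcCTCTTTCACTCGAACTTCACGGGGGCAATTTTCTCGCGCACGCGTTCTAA
Mthfd1: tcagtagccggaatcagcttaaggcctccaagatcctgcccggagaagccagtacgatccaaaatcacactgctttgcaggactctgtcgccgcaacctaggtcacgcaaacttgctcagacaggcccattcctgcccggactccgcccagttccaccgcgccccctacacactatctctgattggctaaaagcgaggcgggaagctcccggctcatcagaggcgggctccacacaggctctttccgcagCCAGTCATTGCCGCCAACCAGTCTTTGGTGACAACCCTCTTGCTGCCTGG
Mthfd1l: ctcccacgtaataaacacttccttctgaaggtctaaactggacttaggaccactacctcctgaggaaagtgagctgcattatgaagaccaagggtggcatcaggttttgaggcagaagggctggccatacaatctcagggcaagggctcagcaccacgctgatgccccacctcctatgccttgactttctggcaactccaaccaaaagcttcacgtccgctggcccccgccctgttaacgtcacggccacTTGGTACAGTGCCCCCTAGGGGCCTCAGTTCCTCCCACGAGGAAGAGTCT

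The deposited annotation starts Shmt2 at 127522444, the first base in capitals, whereas it starts Mthfd1 at 76255298, beyond the window, and Mthfd1l at 3973118, near its end. The windows held 13 CpG dinucleotides for Shmt2, 16 for Mthfd1 and 8 for Mthfd1l, and their GC content was 42.7%, 59% and 55.3%. All promoters of the table had a median of 7 CpG and 52.7% GC. Of the 9 genes, 8 had an entry, with 9 promoters among them since Psat1 has a pair, and these held 8 to 30 CpG. Neither the C/EBP-ATF response element core TGATGNAA nor the E-box CACGTG, both searched on both strands, occurred in any of the 9 windows. Among all 32851 promoters, 3.97% held the first and 7.15% the second, so most windows of this length lack both. The deposited starts of Psat1 (15947337), Mthfd2 (83325908) and Shmt1 (60811718) also lie outside their windows. Those windows reach no further than 15925309, 83317854 and 60811515, so the search did not cover these deposited starts.

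Total counts ranged from 4656103 to 6937497 per library, and between-line variation was wide, with a common biological coefficient of variation of 33.4%. Kdm6a mRNA had 199, 244 and 220 counts in Myc_Utx 2A, 2B and 2D and 440, 348 and 298 in Myc_p53 1, 2 and 3, a log2 fold change of -0.39 (SE 0.22, edgeR adjusted p = 0.243) with overlap after scaling to library size, so its mRNA level did not check the Kdm6a label. The sequencing methods of the paper name Mll3 (Kmt2c) as the target, while its results describe the sequenced lines, as the labels do, as Kdm6a lines. Kmt2c mRNA had 349, 411 and 389 counts in Myc_Utx and 939, 625 and 851 in Myc_p53 (log2 fold change -0.73, SE 0.15, edgeR adjusted p = 0.0289). In tumour-derived lines made with Kdm6a guides, the paper also reports indel mutations at the target and absence of Kdm6a protein on western blot. The genotype is given here as labelled. Myc mRNA had a log2 fold change of -0.16 (SE 0.24, edgeR adjusted p = 0.667). The defining hepatocyte marker Alb had 4 to 26 counts in every library, so its mRNA was near absent in lines labelled as liver cells. Hnf4a (3, 3 and 0 counts in Myc_Utx against 64, 8 and 47) and Trf (2, 1 and 1 against 4, 32 and 44) were lower in every Myc_Utx line. Apoa1 (3, 5 and 3 against 0, 1 and 2) was higher. None of these last genes passed the filter, so they were not tested. Of 12 epithelial and hepatocyte markers, 4 were tested and 1, Cdh1, was lower in Myc_Utx. Their summed level was 3.56 to 95.3 TMM-normalised CPM (counts scaled to a common library size) in Myc_Utx and 51.2 to 1222 in Myc_p53, where TMM scales each library by its total and by the trend of most genes. Of 10 macrophage and leukocyte markers, 7 were tested, 5 were lower in Myc_Utx, among them Csf1r (0, 1 and 0 counts against 259, 39 and 243), and 1, Cd14, was higher. Their summed level was 37.6 to 56.0 against 60.2 to 134 CPM, with Ptprc at no more than 3 counts in any line. None of the 6 tested fibroblast and stellate markers of 10 passed the test (summed level 1953 to 2693 against 42.03 to 3170), and the 6 endothelial markers had no more than 4 counts each. The part of these markers in the results below was not tested, and in bulk RNA a change in the number of cells of a type and a change in RNA per cell cannot be told apart.

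The first enzyme of the route, Phgdh (ENSMUSG00000053398, chr3:98313170-98339990, minus strand, GRCm38), had 333, 363 and 358 CPM in Myc_Utx 2A, 2B and 2D and 294, 419 and 426 in Myc_p53 1, 2 and 3. All Myc_Utx lines fell between the lowest and the other Myc_p53 lines. The means were 351 ± 15.8 (SD, n = 3) and 379 ± 74.2 (SD, n = 3), with a log2 fold change of -0.11 (95% interval -0.50 to 0.28, edgeR adjusted p = 0.654).

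Psat1 (ENSMUSG00000024640, chr19:15904678-15947337, minus strand), the aminotransferase of the second step, had 507, 499 and 607 CPM in Myc_Utx 2A, 2B and 2D and 584, 395 and 688 in Myc_p53 1, 2 and 3. Myc_p53 2 was lowest and Myc_p53 3 highest, with the Myc_Utx lines in between. The log2 fold change was -0.05 (95% interval -0.56 to 0.47, edgeR adjusted p = 0.892), and its sign turned with Myc_Utx 2A, Myc_Utx 2B or Myc_p53 3 left out (0.01, 0.02 and 0.13).

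Psph (ENSMUSG00000029446, chr5:129765558-129787449, minus strand), the phosphatase of the last step, was the least abundant of the trio, with 62.0, 47.6 and 74.2 CPM against 50.3, 36.3 and 70.9. The groups overlapped, and the log2 fold change was 0.22 (95% interval -0.46 to 0.91, edgeR adjusted p = 0.615). Psph shares 452 exonic bases with the abundant Cct6a (3326 to 4785 counts) on the opposite strand, and the strand setting of the counting is not given in the sources used here, so its counts may include reads of Cct6a. Summed over the trio, serine synthesis took 902, 909 and 1038 CPM in Myc_Utx and 928, 850 and 1185 in Myc_p53, overlapping in both directions.

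**Figure D1:**
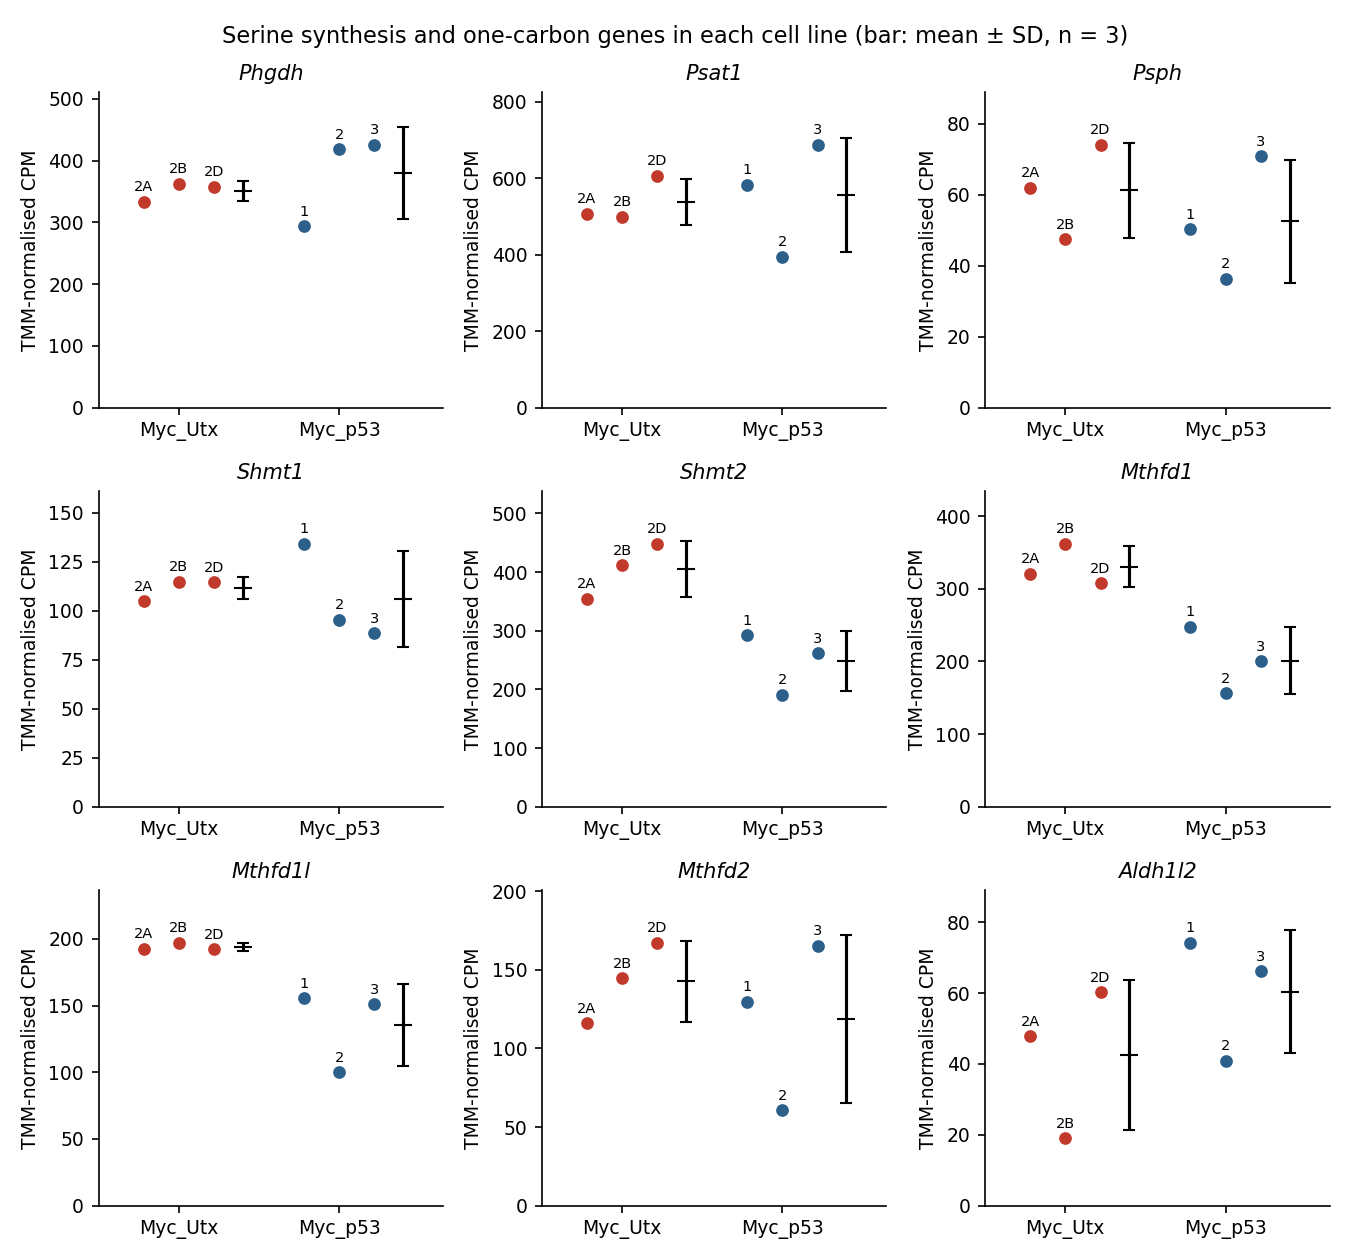
TMM-normalised CPM of the 9 genes in each cell line (points, red for Myc_Utx and blue for Myc_p53, labelled by line), with bars for the group mean ± SD (n = 3). The groups separate for Shmt2, Mthfd1 and Mthfd1l and overlap for the other 6 genes, and Myc_p53 2 is the lowest line in 6 of the 9 panels.

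Shmt2 (ENSMUSG00000025403, chr10:127517123-127522444, minus strand), the mitochondrial hydroxymethyltransferase that opens the folate route, had 354, 412 and 448 CPM in Myc_Utx 2A, 2B and 2D and 292, 191 and 262 in Myc_p53 1, 2 and 3. Every Myc_Utx line was above every Myc_p53 line. The means were 405 ± 47.5 (SD, n = 3) and 248 ± 51.9 (SD, n = 3), with a log2 fold change of 0.70 (SE 0.18, 95% interval 0.26 to 1.15). The edgeR adjusted p of 0.0503 did not pass the threshold, while that of DESeq2 was 0.00606. The alternatives ranged from 0.00606 to 0.144, and without Myc_p53 2 the log2 fold change was 0.55 (edgeR adjusted p = 0.0496).

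Its cytosolic counterpart Shmt1 (ENSMUSG00000020534, chr11:60788104-60811718, minus strand) had 105, 115 and 115 CPM in Myc_Utx 2A, 2B and 2D against 134, 95.5 and 88.4 in Myc_p53 1, 2 and 3. Myc_p53 1 was the highest line and Myc_p53 3 the lowest, so the groups overlapped. The log2 fold change was 0.07 (95% interval -0.36 to 0.50, edgeR adjusted p = 0.798) and -0.05 without Myc_p53 3. Shmt1 shares 184 exonic bases with Smcr8 (289 to 894 counts) on the opposite strand.

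Mthfd1 (ENSMUSG00000021048, chr12:76255298-76319803, plus strand), the trifunctional cytosolic enzyme that receives formate, had 321, 362 and 308 CPM in Myc_Utx 2A, 2B and 2D and 248, 156 and 200 in Myc_p53 1, 2 and 3. The groups did not overlap, and Myc_p53 2 was again lowest. The means were 330 ± 28.4 (SD, n = 3) and 201 ± 45.8 (SD, n = 3), a log2 fold change of 0.71 (SE 0.18, 95% interval 0.28 to 1.15, edgeR adjusted p = 0.0483). The adjusted p lay close to the threshold and ranged from 0.00557 to 0.131 over the alternatives. It was 0.110 without Myc_Utx 2A (log2 fold change 0.75), 0.128 without 2B (0.66), 0.115 without 2D (0.78), 0.0551 without Myc_p53 2 (0.56) and 0.131 without Myc_p53 3 (0.70), and it passed without Myc_p53 1 (0.0396, log2 fold change 0.88). It also missed the threshold with DESeq2 size factors (0.0514), with scaling to total counts (0.0663), with at least 10 counts required in every line (0.0522) and with offsets for transcript length and GC content (0.0551).

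Mthfd1l (ENSMUSG00000040675, chr10:3973118-4167081, plus strand), the mitochondrial formyl-folate synthetase that releases formate, had 193, 197 and 192 CPM in Myc_Utx 2A, 2B and 2D and 156, 100.1 and 151 in Myc_p53 1, 2 and 3. The Myc_Utx lines lay within a 1.03-fold range, all above the Myc_p53 lines. The means were 194 ± 2.80 (SD, n = 3) and 136 ± 30.9 (SD, n = 3), with a log2 fold change of 0.52 (SE 0.18, 95% interval 0.08 to 0.95). The edgeR adjusted p was 0.1, and it stayed above 0.05 in every alternative (0.0648 to 0.197). Without Myc_p53 2 the log2 fold change was 0.34.

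Mthfd2 (ENSMUSG00000005667, chr6:83305691-83325908, minus strand), the mitochondrial dehydrogenase and cyclohydrolase, had 116, 145 and 167 CPM in Myc_Utx 2A, 2B and 2D and 130, 60.6 and 165 in Myc_p53 1, 2 and 3. Myc_p53 2 stood alone at the bottom, and the other 5 lines were interleaved. The log2 fold change of 0.27 (95% interval -0.60 to 1.13, edgeR adjusted p = 0.631) became -0.05 without Myc_p53 2. The related Mthfd2l, with 81 to 243 counts per library, also overlapped (log2 fold change -0.26, SE 0.27, edgeR adjusted p = 0.516).

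Aldh1l2 (ENSMUSG00000020256, chr10:83487450-83534140, minus strand), the mitochondrial formyl-folate dehydrogenase, varied most of the 9 within the Myc_Utx group. It had 47.9, 19.1 and 60.3 CPM in Myc_Utx 2A, 2B and 2D and 74.3, 41.0 and 66.2 in Myc_p53 1, 2 and 3. Myc_Utx 2B was lowest of all lines, 3.16-fold under Myc_Utx 2D. The log2 fold change was -0.51 (95% interval -1.57 to 0.54, edgeR adjusted p = 0.441), an interval too wide to set the direction. Aldh1l2 shares 1056 exonic bases with D10Wsu102e (507 to 651 counts) on the opposite strand, the longest such overlap among the 9 genes.

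**Figure D2:**
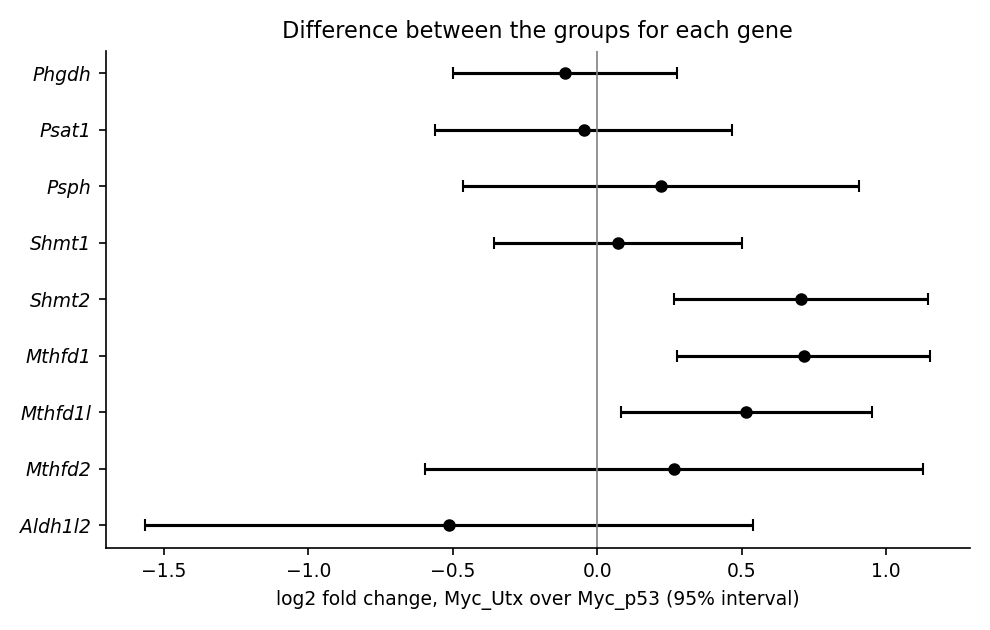
Log2 fold change of each gene in Myc_Utx over Myc_p53 lines (points) with its 95% interval (bars) from the edgeR fit, 3 lines a group. The intervals of Shmt2 (0.26 to 1.15), Mthfd1 (0.28 to 1.15) and Mthfd1l (0.08 to 0.95) lie above 0 before adjustment for the number of genes tested, and the other 6 include 0.

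Since a ratio of transcripts within a line does not depend on library size, mitochondrial and cytosolic counterparts were compared as log2 ratios of counts per kb of transcript. The ratio of Shmt2 to Shmt1 was 4.21, 4.48 and 4.89 in Myc_Utx 2A, 2B and 2D and 2.72, 2.497 and 3.70 in Myc_p53 1, 2 and 3. The groups did not overlap, and the mean log2 ratio was 2.18 ± 0.11 (SD, n = 3) against 1.55 ± 0.30 (SD, n = 3), a difference of 0.63 (two-sided exact permutation p = 0.1, the smallest that 3 lines against 3 allow, and 0.2 adjusted over 4 ratios). Mitochondrial Shmt2 transcript thus exceeded Shmt1 in every line, and by more in each Myc_Utx line.

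The Mthfd1l to Mthfd1 ratio went the other way. It was 0.601, 0.545 and 0.626 in Myc_Utx and 0.630, 0.643 and 0.757 in Myc_p53, with a difference of -0.19 on the log2 scale (exact permutation p = 0.1, adjusted 0.2) and no overlap. The Mthfd2 to Mthfd1 ratio overlapped, at -0.87 ± 0.31 (SD, n = 3) against -0.51 ± 0.55 (SD, n = 3) on the log2 scale (exact permutation p = 0.5, adjusted 0.667). For Aldh1l2 against cytosolic Aldh1l1 the log2 ratio was 4.96 ± 0.38 (SD, n = 3) against 4.81 ± 2.00 (SD, n = 3) (exact permutation p = 1, adjusted 1), but Aldh1l1 had only 2 to 23 counts per library, which leaves little precision.

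**Figure D3:**
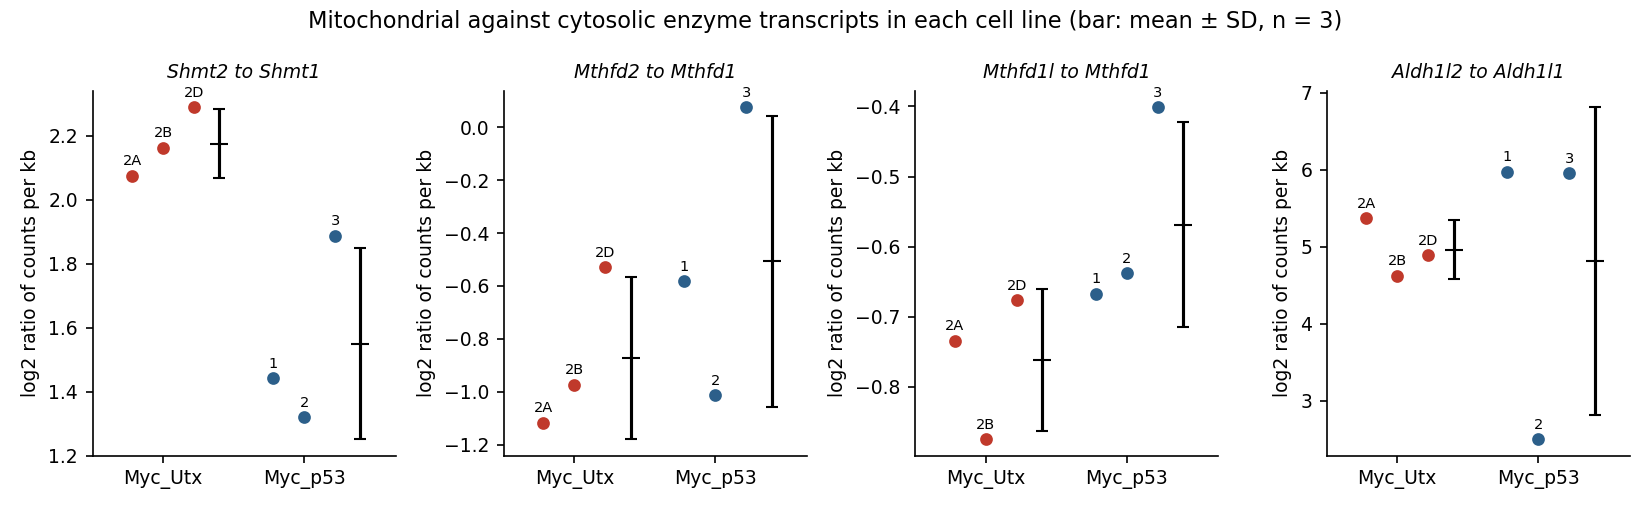
Log2 ratio of counts per kb of transcript for 4 pairs of related enzymes in each cell line (points), with the group mean ± SD (n = 3); axes differ between panels and do not start at 0. Shmt2 to Shmt1 is higher in every Myc_Utx line (mean 2.18 against 1.55), and Mthfd1l to Mthfd1 lower (-0.76 against -0.57).

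The compartments added up as follows. The 4 mitochondrial genes (Shmt2, Mthfd1l, Mthfd2 and Aldh1l2) summed to 711, 773 and 868 CPM in Myc_Utx 2A, 2B and 2D and to 652, 393 and 645 in Myc_p53 1, 2 and 3, without overlap. The cytosolic pair (Shmt1 and Mthfd1) summed to 426, 477 and 422 CPM against 382, 252 and 288, also without overlap. Over the 9 genes the sums were 2038, 2159 and 2329 against 1961, 1494 and 2118, which overlapped. Within the mitochondrial sum Shmt2 and Mthfd1l separated by themselves, and Mthfd2 and Aldh1l2 overlapped. Within the cytosolic sum Mthfd1 separated and Shmt1 overlapped. The sums thus do not show a rise of every gene in a compartment, and 42% of all single genes tested showed no overlap. The genes of each sum were fixed by where the enzyme works, and no test was run on the sums.

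Between genes, levels were compared as CPM per kb, averaged over the 6 lines. Phgdh (147) was the highest, followed by Psat1 (128), Shmt2 (105), Mthfd1 (59.8), Mthfd2 (37.5), Mthfd1l (37.2), Shmt1 (28), Psph (13.1) and Aldh1l2 (6.86). Among all genes tested, Phgdh lay at percentile 97.9, Psat1 at 97.4 and Shmt2 at 96.8, and Aldh1l2 at 43.5. Ranges over the 6 lines overlapped between neighbouring genes at every step of this order apart from that between Shmt1 (22.8 to 34.6) and Psph (8.39 to 17.1). Compared within a line, Shmt2 was also above Mthfd1, and Psph above Aldh1l2, in each of the 6 lines. The route was thus expressed unevenly, with the last step of serine synthesis far below the first 2.

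The Myc_p53 lines varied more than the Myc_Utx lines in 8 of the 9 genes, Aldh1l2 being the exception, against 62.5% of all genes tested. The median coefficient of variation of the 9 genes was 11.1% in Myc_Utx and 23.2% in Myc_p53, and that of all genes tested 13.9% and 19.4%. Myc_p53 2 was the lowest of the 6 lines in 6 of the 9 genes and among the lowest pair in 8, while it was lowest in 21.4% of all genes tested. Its lowest points, relative to the 6-line mean of each gene, were Mthfd2 (-1.03 on the log2 scale), Shmt2 (-0.72) and Mthfd1 (-0.71). Phgdh departed from this, at 0.21 above its mean in the same line. Myc_p53 2 also stood apart from Myc_p53 1 and 3 in some markers, with 83 counts of the keratin Krt8 beside 4537 and 3130. The collagen Col3a1 had 14680 counts beside 65 and 518. Myc_Utx 2A, 2B and 2D had 61, 200 and 0 counts of Krt8 and 8677, 12288 and 11488 of Col3a1. Other markers did not single out Myc_p53 2, such as Col1a1 (21, 777 and 1655 counts in Myc_p53 1, 2 and 3) and Acta2 (39, 102 and 1552). The part of these differences between lines in the results was not tested. Without Myc_p53 2, the log2 fold change of Phgdh was -0.03, of Psat1 -0.24, of Psph 0.017, of Shmt1 0.0024 and of Aldh1l2 -0.73, none of them past the threshold, and those of Shmt2, Mthfd1, Mthfd1l and Mthfd2 are given with each gene above.

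**Figure D4:**
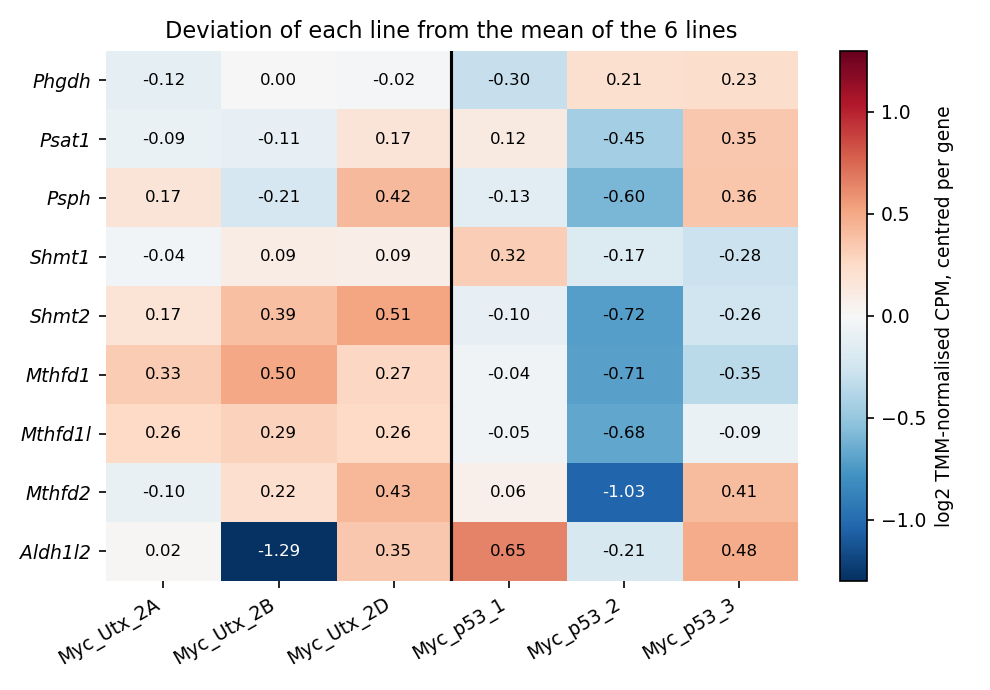
Log2 TMM-normalised CPM of each gene in each line minus the mean over the 6 lines (colour and printed value), with a black line between Myc_Utx and Myc_p53. The column of Myc_p53 2 is negative in 8 of 9 genes, with Mthfd2 at -1.03, and Myc_Utx 2B is at -1.29 for Aldh1l2.

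The gene profiles nearest to Mthfd1, the gene past the threshold, were sought among 9404 other genes averaging 50 counts or more, as the root mean square difference of centred log2 CPM over the 6 lines. Pomt2, a protein O-mannosyltransferase, was nearest (0.054, own log2 fold change 0.77), followed by Eef2kmt, a methyltransferase of elongation factor eEF2 (0.060, log2 fold change 0.64). This is a description of likeness over 6 lines, whose libraries differed in depth, and no test was run on it.

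Glycine cleavage, which consumes the glycine made by Shmt2 and yields a further one-carbon unit in mitochondria, was split. Of the 6 genes for serine-glycine interconversion and glycine cleavage, 1 was higher (Gcsh) and 2 lower (Gldc and Amt), with a median log2 fold change of 0.28. Across all genes tested, 6.99% were called higher and 7.69% lower, and lists this short cannot be told from those shares by their counts. Gldc, the glycine decarboxylase, had 0.598, 6.74 and 1.11 CPM in Myc_Utx 2A, 2B and 2D and 19.9, 88.6 and 119 in Myc_p53 1, 2 and 3. That is 3, 36 and 5 counts against 126, 478 and 836, with no overlap and a log2 fold change of -4.71 (SE 1.03, edgeR adjusted p = 0.0340). The size rested in part on Myc_Utx 2B, without which it was -6.43 (adjusted p = 0.0613), and the call was also lost without Myc_Utx 2A (-4.22, adjusted p = 0.0945), Myc_Utx 2D (-4.33, adjusted p = 0.118) or Myc_p53 3 (-4.23, adjusted p = 0.0932).

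Amt, the aminomethyltransferase of the same complex, had 11, 12 and 12 counts in Myc_Utx 2A, 2B and 2D and 50, 31 and 49 in Myc_p53 1, 2 and 3. It fell by 1.53 on the log2 scale (SE 0.29, edgeR adjusted p = 0.0254). Gcsh, the lipoyl carrier protein, went the other way, with 538, 564 and 523 counts against 418, 394 and 539. Scaled to library size its groups did not overlap (107, 106 and 116 CPM against 66.1, 73.0 and 76.9), and the log2 fold change was 0.61 (SE 0.11, edgeR adjusted p = 0.0253), or 0.37 (adjusted p = 0.0865) with offsets for transcript length and GC content.

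**Figure D5:**
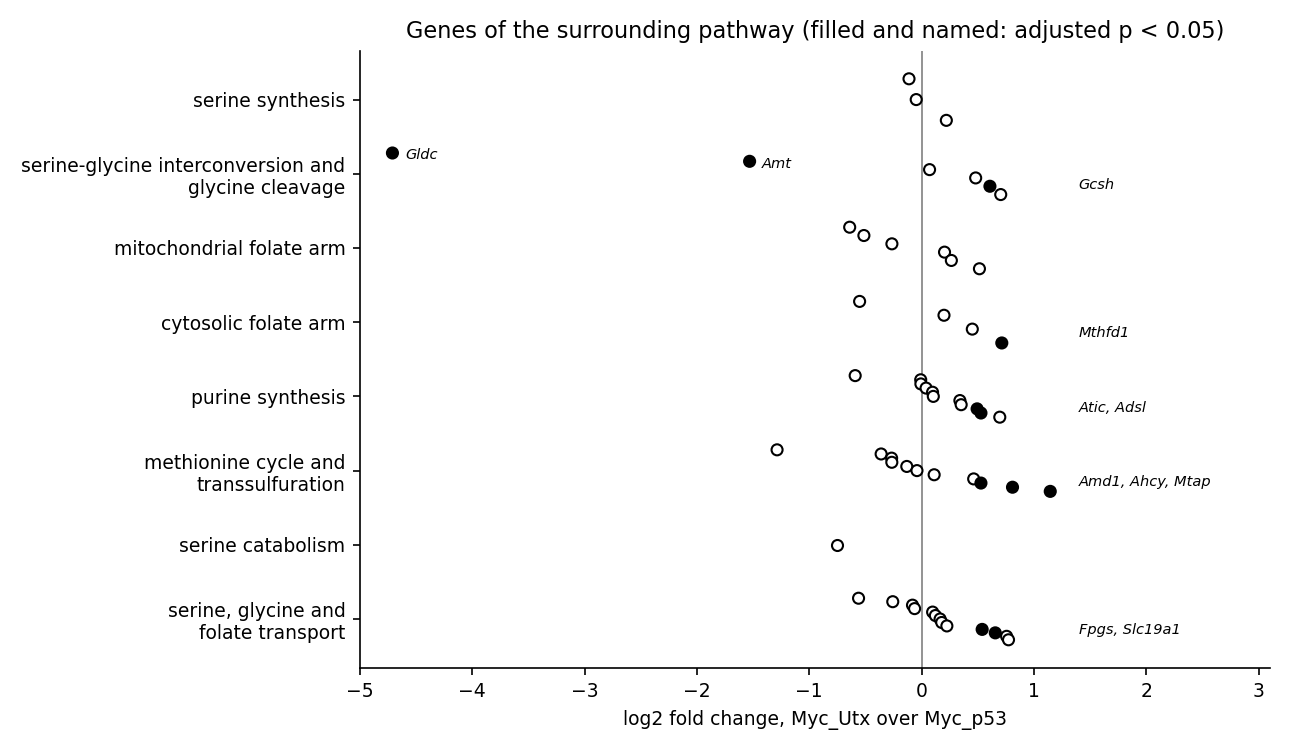
Log2 fold change of every tested gene in 8 lists of the pathway (points), filled and named where the edgeR adjusted p was under 0.05. Gldc (-4.71) and Amt (-1.53) lie on the left, and the called genes of the folate, purine, methionine and transport lists lie on the right, with log2 fold changes up to 1.15 for Mtap.

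In the other folate lists few genes passed, where 6.99% of all genes tested were called higher and 7.69% lower. None of the 6 tested genes of the mitochondrial arm was called (median log2 fold change -0.03), and of the 4 tested genes of the cytosolic arm Mthfd1 alone was called (median 0.33). Purine synthesis, which takes formyl-folate at 2 steps, had 2 of 11 genes higher and 0 lower (median 0.10). These were Adsl, adenylosuccinate lyase (163 ± 12.2 against 113 ± 4.25 CPM, SD, n = 3, log2 fold change 0.53, edgeR adjusted p = 0.0282), and Atic, which performs the second formylation and closes the ring (395 ± 13.7 against 280 ± 38.4, log2 fold change 0.49, edgeR adjusted p = 0.0481).

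Of the 11 tested genes of the methionine cycle and transsulfuration, 3 were higher and 0 lower (median -0.04). The shares over all genes tested were 6.99% higher and 7.69% lower. Mtap, which salvages methionine from the by-product of polyamine synthesis, had the largest fold change of the 3. It had 2859, 3094 and 2239 counts in Myc_Utx 2A, 2B and 2D and 1561, 1411 and 1660 in Myc_p53 1, 2 and 3, a log2 fold change of 1.15 (SE 0.11, edgeR adjusted p = 0.0103). Ahcy, which hydrolyses S-adenosylhomocysteine, rose by 0.81 (edgeR adjusted p = 0.0410) and Amd1, the decarboxylase that commits S-adenosylmethionine to polyamines, by 0.53 (edgeR adjusted p = 0.0487) on the log2 scale.

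Of 13 tested genes for serine, glycine and folate transport, 2 were higher and 0 lower (median 0.17), and both handle folate. Slc19a1, the reduced folate carrier, rose by 0.66 (edgeR adjusted p = 0.0412) and Fpgs, which adds the glutamate tail that keeps folate in the cell, by 0.54 (edgeR adjusted p = 0.0444) on the log2 scale. Among ATF4 and its targets outside the pathway, 2 of 14 genes were higher and 0 lower (median 0.33). Beside both lists, 6.99% of all genes tested were called higher and 7.69% lower. Atf4 mRNA itself had 298, 325 and 388 CPM in Myc_Utx 2A, 2B and 2D and 277, 179 and 323 in Myc_p53 1, 2 and 3, overlapping (log2 fold change 0.38, SE 0.23, edgeR adjusted p = 0.290). The called genes were Ddit4 (log2 fold change 1.81, edgeR adjusted p = 0.0154) and Sesn2 (1.69, edgeR adjusted p = 0.0164), known as inhibitors of mTORC1 signalling. The list was mixed, with 9 positive and 5 negative fold changes. Without overlap, 5 of its genes were higher and 2 lower, where 42% of all genes tested showed no overlap in one direction or the other. The lower pair, Ddit3 (log2 fold change -0.70) and Vldlr (-1.02), was not called.

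Of the 12 genes outside the 9 that were called in these lists, 0 stayed past the threshold without Myc_Utx 2A, 1 without 2B, 2 without 2D, 5 without Myc_p53 1, 8 without Myc_p53 2 and 1 without Myc_p53 3, and none changed direction. Mtap kept its call in 5 of these 6 fits, failing without Myc_Utx 2A (adjusted p = 0.0614). The calls of the whole table, 805 higher and 885 lower, fell as well in most of these fits. They were 3 and 1 without Myc_Utx 2A, 43 and 38 without 2B, and 43 and 28 without 2D. Without Myc_p53 1 they were 481 and 627, and without Myc_p53 3 they were 63 and 57. Without Myc_p53 2 they rose to 836 and 1118. Atic, Ahcy and Amd1 lost the call with any of the lines left out.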

How the data were processed

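The authors deposited raw counts of reads per mouse Ensembl gene, without normalization, for 6 cell line libraries. The submitters' processing notes name Trimmomatic 0.36, STAR 2.5.3a, featureCounts 1.6.3, DESeq2 1.20.0 and the build GRCm38 (mm10), whereas the paper's methods name HTSeq, a human build and Myc;sgMll3 lines. Groups here follow the sample labels, and the gene coordinates are mouse. Lines were not paired.

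The tool was edgeR 4.0.16 under R 4.3.3. Genes passed filterByExpr (minimum count 10), libraries were scaled by TMM, and p-values of the quasi-likelihood model (glmQLFTest) were adjusted by Benjamini-Hochberg over 11510 genes. A call is an adjusted p under 0.05. Standard errors were obtained from F. Ratios used a pseudocount of 0.5 counts and two-sided exact permutation tests. Named are the 9 genes, up to 4 called genes of each list with the largest changes, the check genes and the 2 nearest profiles of a called member. The Kmt2c, Krt8, Col3a1, Col1a1, Acta2, Ddit3, Vldlr, Ptprc, Alb, Hnf4a, Trf and Apoa1 values, and genes overlapping a member, were added after values were seen. The members and lists were chosen with earlier results of these data known. Alternatives were no filter, at least 10 counts in every line, DESeq2 size factors, total counts, length and GC offsets (splines with 5 degrees of freedom, MASS 7.3.60.0.1), DESeq2 1.42.0, a pseudocount of 2, and leaving out each line. The edgeR procedure was tested on simulated data. One check gene is not reported here.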

Additional observations from a re-analysis of the deposited data

How the results depend on the processing

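Among the 9 genes, 1 was called higher; unfiltered counts and DESeq2 each gave 2, and there were 0 with at least 10 counts in every line, with DESeq2 size factors, with total counts only and with length and GC offsets, and 0 to 1 with each line left out. None was called lower in any of these. Over the whole table, 695 genes were called higher with no filter and 1268 by DESeq2, beside 805 in the main fit. The other processing settings called 601 to 727 higher. Leaving out a line gave 3 (Myc_Utx 2A), 43 (2B), 43 (2D), 481 (Myc_p53 1), 836 (Myc_p53 2) and 63 (Myc_p53 3). Where only 3 to 63 genes were called higher and 1 to 57 lower, a count of 0 says little about the 9 genes. Shmt2 (log2 fold change 0.70) passed the threshold with no filter (0.73, adjusted p = 0.0430) and by DESeq2 (0.69, adjusted p = 0.00606), and ranged from 0.55 to 0.83 with each line left out. Mthfd1 (0.71) did not pass with at least 10 counts in every line (0.67), DESeq2 size factors (0.70), total counts only (0.65) or length and GC offsets (0.74), and ranged from 0.56 to 0.88 with each line left out. The sign turned for Psat1 (-0.24 to 0.13 with each line left out), Shmt1 (-0.0505 to 0.27), Mthfd2 (-0.0474 to 0.57) and Myc (-0.30 to 0.0678). Phgdh, Psph, Shmt2, Mthfd1, Mthfd1l and Aldh1l2 kept their direction in all 12 alternatives. Without the filter the median of all genes was -0.23 over 24221 genes, among them many of low count. The cause of these shifts was not tested. No paired analysis was possible because a line number of one group never recurs in the other. With 3 lines a group the 95% intervals reached from -0.50 to 0.28 for Phgdh and from -1.57 to 0.54 for Aldh1l2. Differences within these intervals were thus not excluded.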

Other observations

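Of 6 serine catabolism genes, 1 was tested and 0 were called, while 1 was called lower with at least 10 counts required in every line. Srr, serine racemase, had 34, 44 and 34 counts in Myc_Utx 2A, 2B and 2D and 86, 73 and 78 in Myc_p53 1, 2 and 3, without overlap (log2 fold change -0.76, edgeR adjusted p = 0.0686). Of all genes tested, 42% showed no overlap. Sds, the liver serine dehydratase, had at most 1 count in any line, and Agxt and Agxt2 had 0 in all 6, levels at or under the limit of 3 counts per library that a count of 0 allows for counting error. Srr, Sds, Agxt and Agxt2 were named after their values were seen.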
